A study of Mus musculus with 4 samples.

Results

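The nuclear-encoded subunits of respiratory complexes I to IV were examined in bulk RNA-seq of mouse bone marrow cells labelled Lsk. The members were the protein-coding genes on nuclear chromosomes whose symbol starts with Nduf plus a, b, c, s or v and a number, with Sdha to Sdhd, with Uqcr, or with Cox followed by a digit from 4 to 8, together with Cyc1. The rule used names and no measured value. It took 68 of the 55399 genes in the deposited count table, of which 37 belong by name to complex I, 4 to complex II, 9 to complex III and 18 to complex IV. The 4 libraries comprised 2 of genotype Ppm1bfl/fl, in which Ppm1b alleles are flanked by loxP sites, and 2 of genotype Ppm1bCKO, the conditional knockout. They are called fl/fl 1, fl/fl 2, CKO 1 and CKO 2 here, after the genotype and number in their titles. The sources used here did not give the Cre line, the age or sex of the mice, or any treatment. The labels did not tie replicates to separate mice, and the p-values below capture no more than the spread among the 4 libraries, some of which may be technical. The comparison asked whether subunit transcripts differ with the Ppm1b genotype, complex by complex, and how their values relate to transcript length.

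The respiratory chain passes electrons from NADH and succinate to oxygen in the inner mitochondrial membrane. Complex I (NADH dehydrogenase) and complex II (succinate dehydrogenase, which also belongs to the tricarboxylic acid cycle) feed electrons to coenzyme Q, complex III passes them to cytochrome c, and complex IV (cytochrome c oxidase) passes them to oxygen. Complexes I, III and IV pump protons, and ATP synthase uses the resulting gradient. Their cores are built in part from proteins made inside mitochondria, around which many small nuclear-encoded proteins assemble. Haematopoietic stem cells are known for a lower reliance on respiration than the progenitors they give rise to, and loss of Sdhd or Uqcrfs1 in mice is known to disturb the blood stem cell compartment.

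Most members encode very small proteins, and length turned out to matter for these libraries. The shortest coding sequences of tested members belonged to Uqcr11 (171 bases, 56 residues) and Cox7c (192 bases, 63 residues), small subunits of complex III and complex IV. They are shown whole as examples of short members, with the start and stop codons in capitals (GENCODE, mm10).
Uqcr11: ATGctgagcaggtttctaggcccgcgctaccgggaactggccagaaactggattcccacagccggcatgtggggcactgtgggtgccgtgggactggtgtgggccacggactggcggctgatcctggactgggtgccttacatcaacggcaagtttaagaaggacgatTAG
Cox7c: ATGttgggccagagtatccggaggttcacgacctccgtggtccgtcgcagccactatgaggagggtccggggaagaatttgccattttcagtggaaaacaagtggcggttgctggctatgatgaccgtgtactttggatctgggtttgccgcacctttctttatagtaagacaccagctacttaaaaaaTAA
The longest were Ndufs1 (2184 bases), the largest subunit of complex I, and Sdha (1995 bases), the flavoprotein of complex II.

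The promoters of this class of genes are known for sites of the transcription factors NRF1, GABPA and YY1. RefSeq windows (GRCm38.p6) of the 250 bases before the start site were given for 53 of the 68 members. On either strand, the NRF1 motif (GCGCA and GCGC with any base between them) was found in 17.0% of these 53 genes and in 6.05% of the 16512 genes with a window. The GABPA motif CCGGAAG was found in 15.1% and 10.5%, and the YY1 motif ATGGCGGC in 1.89% and 1.46%. These matches describe letters in the windows and were not tested. The first window shown is that of Cox6a1 (chr5:115348959-115349208, minus strand), which held both an NRF1 and a GABPA match, and the second that of Sdha (chr13:74350241-74350490, minus strand), which stood apart from the other subunits in its values. Capitals mark 2 NRF1 matches and 1 GABPA match on the opposite strand in Cox6a1, and 3 NRF1 matches in Sdha.
Cox6a1: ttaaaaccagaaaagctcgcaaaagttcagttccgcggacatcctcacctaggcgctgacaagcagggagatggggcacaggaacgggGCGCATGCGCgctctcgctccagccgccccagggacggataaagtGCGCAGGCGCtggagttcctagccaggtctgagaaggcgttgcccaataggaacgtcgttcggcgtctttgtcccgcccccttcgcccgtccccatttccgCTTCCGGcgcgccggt
Sdha: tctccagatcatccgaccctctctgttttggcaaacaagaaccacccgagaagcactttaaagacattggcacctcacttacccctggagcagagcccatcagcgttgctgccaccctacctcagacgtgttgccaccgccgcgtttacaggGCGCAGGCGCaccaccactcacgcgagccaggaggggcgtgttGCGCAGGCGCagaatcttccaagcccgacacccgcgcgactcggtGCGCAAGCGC
In CKO 2, Cox6a1 stood at 1.48 and Sdha at 0.921 times the fl/fl mean. Their coding sequences also differ in length (339 and 1995 bases), and a relation of the matches to the values was not tested.

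CKO 2 stood apart from the other 3 libraries before any subunit was considered. Total counts were 26002277, 30045382, 22393973 and 24856083 in fl/fl 1, fl/fl 2, CKO 1 and CKO 2. The 4 Y-linked genes Ddx3y, Uty, Kdm5d and Eif2s3y summed to 5984, 6396 and 5870 counts in the first 3 and to 2 counts in CKO 2. Summed eosinophil markers (5 genes) stood at 2724 and 2971 CPM (counts scaled to library size) in the fl/fl libraries, 4080 in CKO 1 and 7184 in CKO 2. B cell markers (7 genes) stood at 182, 186, 276 and 605 CPM in the same order. Erythroid markers (9 genes), at 8293, 14474, 12269 and 17559 CPM, already differed widely between the fl/fl libraries. Most of their sum was globin, and Slc4a1 was lowest in CKO 2 (1017, 1917, 1367 and 897 CPM), with Alas2 within the fl/fl range there (339, 628, 508 and 474 CPM). The 8 markers of the labelled cells, among them Kit and Ly6a, summed to 520, 422, 440 and 347 CPM, with Kit at 228, 194, 187 and 121 CPM. The lower sum in CKO 2 was mostly Kit, but Flt3, Hlf and Meis1 were also lowest there, with Hlf and Meis1 only slightly below fl/fl 2. Ly6a, Cd34, Mecom and Procr were not lowest in CKO 2. Ly6a stood at 22.2, 18.3, 17.7 and 22.2 CPM and Cd34 at 137, 118, 122 and 122 CPM. Each of these marker genes was detected, and the summed neutrophil markers (8 genes, Ltf and Camp among them) ran from 8188 to 8868 CPM. Single neutrophil genes were not level. S100a8 (476, 484, 448 and 642 CPM), S100a9, Camp, Elane and Ngp were highest in CKO 2. Mpo (3976, 3496, 3759 and 3248 CPM) and Mmp8 were lowest there, and Ltf was within the fl/fl range. Plasma cell markers (7 genes) ran the other way, from 21605 and 12950 CPM in the fl/fl libraries to 3995 and 5376 CPM in the CKO libraries. Most of this sum was Igha, Igkc and Jchain. Prdm1 was also lower in both CKO libraries (12.1, 9.81, 5.41 and 5.98 CPM). Xbp1 was highest in CKO 2 (205.6, 184.8, 171.4 and 215.3 CPM), and Sdc1 (20.8 CPM) and Mzb1 (4.09 CPM) there were near fl/fl 2 (21.0 and 3.95 CPM). Macrophage markers (10 genes) summed to 731, 766, 431 and 545 CPM, and plasmacytoid dendritic markers (5 genes) to 575, 532, 687 and 688 CPM. In both lists the CKO 1 sum also lay outside the fl/fl range. Among their genes, Adgre1, C1qa and Tcf4 were within the fl/fl range in CKO 2. The part of these cells in the subunit values was not tested, and fewer cells of a type and less RNA per cell cannot be told apart in bulk samples. The targeted gene Ppm1b (chromosome 17, 84956741 to 85023991, mm10) was at 80.8, 82.5, 84.3 and 120.6 CPM, not lower in the libraries labelled CKO (log2 fold change 0.33 ± 0.20 SE, edgeR adjusted p = 0.717). Each direction therefore rests on the labels.

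Subunit transcripts were higher in CKO 2 than in the other 3 libraries, across all 4 complexes, while CKO 1 lay with the fl/fl libraries. Reads of the 68 members made up 0.526% of all counts in fl/fl 1 (95% Wilson interval 0.523 to 0.529), 0.533% in fl/fl 2 (0.531 to 0.536), 0.531% in CKO 1 (0.528 to 0.534) and 0.728% in CKO 2 (0.725 to 0.731). Among the 64 members abundant enough to test, the median level of CKO 1 was 1.00 times the fl/fl mean and that of CKO 2 was 1.58 times. CKO 2 was the highest of the 4 libraries for 60 of the 64, where it was the highest for 36.7% of all tested genes. The exceptions were Ndufb2, Ndufs1, Sdha and Cox4i2. The tested members were short (median exonic length 1372 bases, against 3753 over all tested genes). Other coding genes under 1000, from 1000 to 1500 and from 1500 to 2000 bases had CKO 2 highest in 72.8, 73.7 and 69.4%. For members in these bins it was 18 of 19, 16 of 16 and 8 of 8. From 2000 to 3000 and 3000 to 5000 bases it was 58.4 and 39.0% of others, and 10 of 10 and 8 of 9 members. CKO 1 lay above both fl/fl libraries for 24 of the 64, below both for 19 and between them for 21. Over all 16393 tested genes these counts were 5340, 5368 and 5685. In the 3 libraries other than CKO 2, the highest value exceeded the lowest by a median of 1.09-fold over the 62 members at 1 CPM or more, and by at most 1.36-fold.

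**Figure D1:**
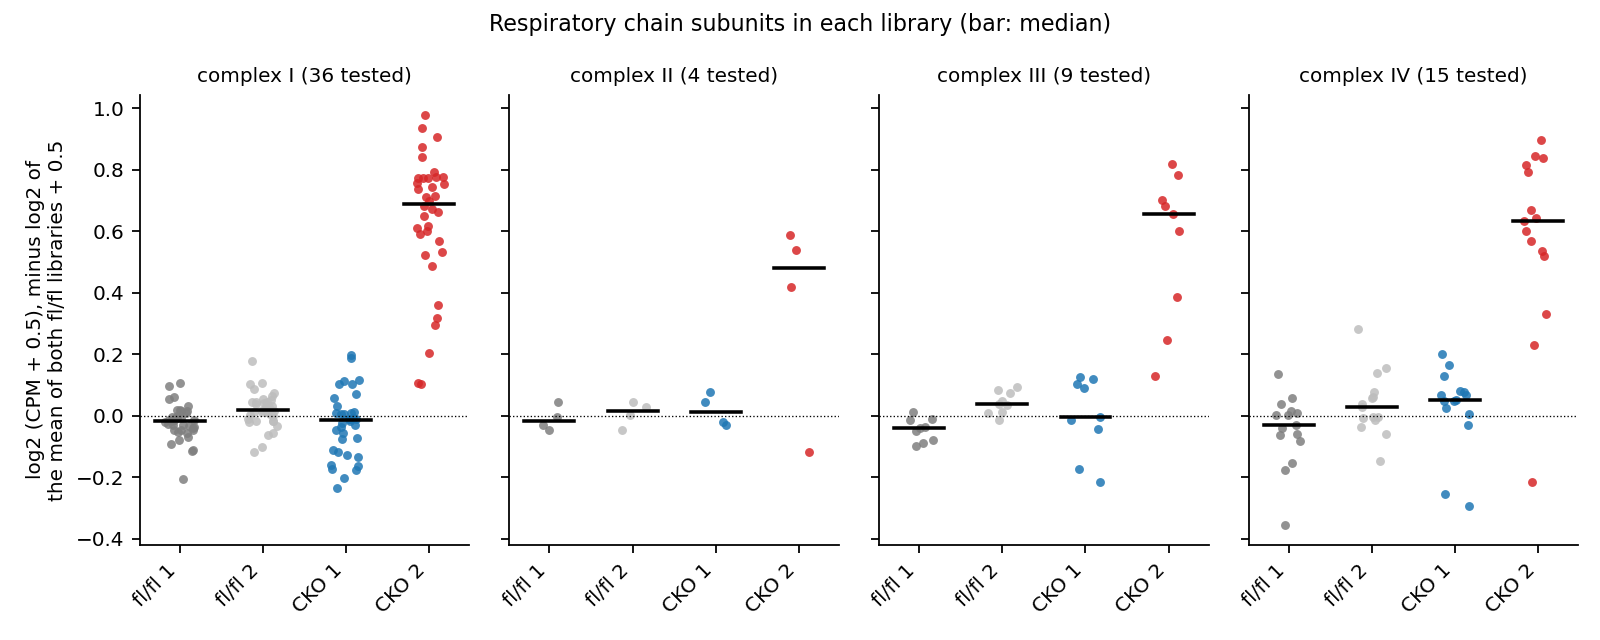
Each point is a tested subunit gene in a library, as log2 (CPM + 0.5) minus log2 of the mean of both fl/fl libraries + 0.5, and the bar is the median of the complex. The medians of CKO 2 lie at 0.69, 0.48, 0.66 and 0.64 for complexes I to IV, and those of CKO 1 between -0.01 and 0.05.

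No member passed the test between genotypes. The edgeR quasi-likelihood test called 0 of the 64 at an adjusted p under 0.05, against 0.372% of all 16393 tested genes (0.061% higher), and the smallest adjusted p of a member was 0.717. At an unadjusted p under 0.05 there were 3 members, Ndufb3, Ndufs4 and Cox6c, all with positive values, where 3.23% of all tested genes were at that level with a positive value. DESeq2 and limma-voom also called 0 members, where they called 1.21% and 0.311% of all tested genes. Log2 fold changes (Ppm1bCKO over Ppm1bfl/fl) were positive for 61 of the 64, against 49.6% of all tested genes, and ran from -0.15 to 0.63 with a median of 0.36, where the median of all tested genes was -0.003. Medians by complex were 0.37, 0.27, 0.32 and 0.38 for complexes I to IV. Both CKO libraries lay above both fl/fl libraries for 24 of the 64, against 20.6% of all tested genes, and below both for 1, which is Sdha. Groups without overlap were common at large, in 41.1% of all tested genes in either direction.

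A single library decided these values. The shares of all tested genes set beside them are not matched for length, and the tested members were shorter (median exonic length 1372 against 3753 bases). Without CKO 1, so that CKO 2 alone represented its genotype and was assumed to vary like the fl/fl pair, edgeR called 51 of the 64 members higher, against 10.2% of all tested genes, with a median log2 fold change of 0.66. These comprised 30 of the 36 tested members of complex I, 3 of 4 of complex II, 6 of 9 of complex III and 12 of 15 of complex IV. Among the 13 not called were Ndufs1, Ndufv1, Ndufv3, Ndufa10, Ndufb2, Sdha, Cyc1, Uqcrc1, Uqcrc2, Cox4i2, Cox6b2 and Cox7a1. Without fl/fl 1 or fl/fl 2, edgeR called 0 members, against 0.856% and 1.25% of all tested genes. Without CKO 2, edgeR called 0 of the 64, against 0.547% of all tested genes, the median was 0.0002, and 32 members were positive and 32 negative.

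Summed over all members, the level was 5142, 5314, 5233 and 7625 CPM in fl/fl 1, fl/fl 2, CKO 1 and CKO 2. CKO 1 lay between the fl/fl libraries and CKO 2 above all 3, so that the genotypes overlapped. The mean was 5228 ± 122 CPM in Ppm1bfl/fl and 6429 ± 1691 CPM in Ppm1bCKO (SD, n = 2 each), a 1.23-fold difference (two-sided exact permutation p = 0.667, where 0.333 is the smallest p that 2 against 2 libraries allow). Complex I summed to 1992, 2062, 1999 and 3044 CPM, complex III to 1021, 1068, 1063 and 1456 CPM and complex IV to 1481, 1529, 1515 and 2361 CPM. For each of these 3 complexes CKO 1 also lay between the fl/fl libraries (exact permutation p = 0.667 each). Complex II summed to 646.9, 655.1, 655.3 and 764.8 CPM, with CKO 1 and fl/fl 2 nearly equal (exact permutation p = 0.333). CKO 2 stood at 1.50, 1.17, 1.39 and 1.57 times the fl/fl mean for complexes I to IV. The lower value of complex II came with Sdha, since its other 3 genes together stood at 1.44 times.

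In complex I, the large core subunits Ndufv1 and Ndufs1 stood less far above the fl/fl mean in CKO 2 than most members did. Ndufv1, which binds the flavin that takes electrons from NADH, stood at 98.8, 103.0, 100.4 and 126.0 CPM in fl/fl 1, fl/fl 2, CKO 1 and CKO 2. Ndufs1, which carries several iron-sulphur clusters, stood at 99.9, 116.7, 110.6 and 116.6 CPM. Its CKO 2 value lay within the fl/fl range, and its log2 fold change was 0.07 ± 0.16 SE (edgeR adjusted p = 0.905). Ndufs7, which holds the last cluster before coenzyme Q, stood at 48.5, 48.8, 47.1 and 73.6 CPM, 1.51 times the fl/fl mean in CKO 2, so the core subunits were not alike.

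The accessory subunits of complex I, which surround the core and help its assembly, mostly had their highest value in CKO 2, which was the highest library for 34 of the 36 tested members of complex I. Ndufb3, an accessory subunit of the membrane arm, stood at 45.2 and 46.1 CPM in the fl/fl libraries, 52.5 CPM in CKO 1 and 84.1 CPM in CKO 2. Both CKO libraries were above both fl/fl libraries, and its log2 fold change was 0.58 ± 0.23 SE (edgeR unadjusted p = 0.0340, adjusted p = 0.717). Ndufs4, an accessory subunit whose loss causes Leigh-like disease in mice, stood at 38.4, 35.5, 42.2 and 62.2 CPM (0.50 ± 0.21 SE, edgeR unadjusted p = 0.0454, adjusted p = 0.717). Ndufs5 stood at 29.3, 29.3, 31.8 and 55.5 CPM, again with CKO 1 slightly above the fl/fl pair. Ndufa1, an X-linked subunit of the membrane arm, went the other way in CKO 1, at 27.1, 26.3, 23.8 and 45.4 CPM. The largest ratio of any tested member was that of Ndufc1, at 10.6, 10.7, 10.7 and 21.4 CPM, 2.01 times the fl/fl mean in CKO 2 with the other 3 libraries level. Ndufb2 stood at 3.64, 4.91, 3.87 and 4.63 CPM, and its libraries overlapped (log2 fold change -0.01 ± 0.30 SE). Ndufc1 and Ndufb2 were chosen after their values were seen. Ndufab1, the acyl carrier protein that is a complex I subunit but falls outside the naming rule, stood at 36.8, 43.7, 42.4 and 74.6 CPM, with CKO 2 highest as for most members.

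Ndufa4, named for complex I but now assigned to complex IV, stood at 114.8, 116.8, 110.0 and 177.8 CPM. Its relative Ndufa4l2, known as a hypoxia-induced gene, had 1, 4, 3 and 1 counts and was not tested. With at most 4 counts in any library, no difference was detectable at this depth, where 3 counts correspond to 0.0998 to 0.134 CPM.

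In complex II the 4 subunits split. Sdha, the flavoprotein that oxidises succinate, stood at 333.6, 334.8, 329.5 and 307.9 CPM, and was the only one of the 64 members lowest in CKO 2. Both CKO libraries lay below both fl/fl libraries, by little (log2 fold change -0.07 ± 0.16 SE, edgeR adjusted p = 0.905). Sdhb, the iron-sulphur subunit that joins Sdha in the matrix part, stood at 87.6, 82.2, 83.2 and 123.6 CPM. The membrane anchors Sdhc and Sdhd stood at 94.2, 98.0, 99.3 and 128.8 CPM, and at 131.5, 140.1, 143.4 and 204.5 CPM. For all 3 of these genes CKO 2 was the highest, at 1.46, 1.34 and 1.51 times the fl/fl mean. Within a library, Sdhb counts were 26.3, 24.5 and 25.2% of Sdha counts in fl/fl 1, fl/fl 2 and CKO 1 and 40.2% in CKO 2. Sdhd counts were 39.4, 41.9, 43.5 and 66.4% of Sdha counts. The proteins of these genes assemble in equal number, but their transcript ratios differed between CKO 2 and the rest whatever the scaling between libraries. The ratios do not allow for length, and Sdha, Sdhb and Sdhd have 1995, 849 and 480 coding bases. With each library's trend with exonic length removed, Sdhd stood at 139.8, 146.5, 150.3 and 168.6 CPM. Sdhb stood at 91.2, 84.8, 85.9 and 109.4 CPM on that scale, and Sdha at 332.9, 334.1, 330.7 and 306.0 CPM.

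In complex III the subunits also differed in how far CKO 2 stood above the fl/fl mean. The core proteins Uqcrc1 and Uqcrc2 stood at 281.9, 287.0, 284.0 and 337.7 CPM and at 160.3, 162.6, 176.3 and 176.4 CPM, 1.19 and 1.09 times the fl/fl mean in CKO 2. For Uqcrc2 both CKO libraries were level and above the fl/fl pair (log2 fold change 0.13 ± 0.15 SE, edgeR adjusted p = 0.805). Cyc1, the cytochrome c1 that hands electrons to cytochrome c, stood at 125.6, 134.2, 128.7 and 170.0 CPM. Uqcrfs1, the Rieske iron-sulphur protein, stood at 104.2, 109.9, 114.9 and 169.0 CPM, with both CKO libraries above the fl/fl pair. Uqcrb, Uqcrh and Uqcr10, small accessory subunits, had larger ratios in CKO 2, while Uqcr11, the smallest, was at 1.52 times the fl/fl mean, below the 1.58 times of Uqcrfs1. Uqcrb stood at 61.4, 69.4, 71.1 and 115.7 CPM (0.51 ± 0.24 SE, edgeR adjusted p = 0.717). Uqcrh, a hinge protein near cytochrome c1, stood at 113.7, 119.5, 124.3 and 200.9 CPM (0.48 ± 0.23 SE, edgeR adjusted p = 0.717). Uqcr10 stood at 53.3, 60.9, 49.1 and 93.1 CPM, with CKO 1 the lowest and CKO 2 the highest of the 4. Uqcr10 counts were 33.2, 37.5 and 27.9% of Uqcrc2 counts in the first 3 libraries and 52.8% in CKO 2, and Uqcrb counts were 38.3, 42.7, 40.3 and 65.6% of them. These within-library pairs, Uqcrc2 and those of Sdha were chosen after their values were seen. The percentages of Uqcrc2 counts do not allow for length either, and Uqcrc2, Uqcr10 and Uqcrb have 1362, 195 and 336 coding bases.

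In complex IV the widely expressed subunits were higher in CKO 2 than in the other 3 libraries. Cox4i1, a regulatory subunit and the most abundant member per kilobase of principal transcript, stood at 284.1, 300.3, 306.2 and 456.9 CPM (0.38 ± 0.22 SE, edgeR adjusted p = 0.717). Cox5a stood at 74.96, 71.2, 76.5 and 126.8 CPM. Cox6c stood at 94.1, 93.7, 102.9 and 168.9 CPM (0.53 ± 0.23 SE, edgeR unadjusted p = 0.0498, adjusted p = 0.717). For these 3 genes CKO 1 was slightly above both fl/fl libraries. Cox7a2, Cox8a and Cox6b1 had the same pattern, at 49.7, 49.2, 51.1 and 87.3 CPM, 146.1, 145.6, 150.7 and 221.3 CPM, and 122.8, 120.3, 123.6 and 193.6 CPM. Cox6a1 differed, at 179.7, 196.0, 157.3 and 278.7 CPM, since CKO 1 was its lowest library (0.21 ± 0.25 SE, edgeR adjusted p = 0.802).

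Several complex IV subunits have a second form made mainly in heart, skeletal muscle, lung or testis, and these were scarce with 1 exception. Cox4i2, known from lung and from the response to low oxygen, stood at 0.376, 0.862, 0.660 and 0.463 CPM, from 10 to 26 counts a library. Cox7a1, the heart and muscle form, stood at 0.451, 0.696, 0.704 and 0.758 CPM. At so few reads no difference was detectable, with log2 fold changes of -0.15 ± 0.59 SE and 0.34 ± 0.51 SE. Cox8b (muscle) had 0, 0, 1 and 0 counts, and Cox8c and Cox7b2 (testis) had 0 counts in every library, which allows up to 0.0998 to 0.134 CPM. Cox6b2, known as a testis form, was the exception at 32.9, 40.5, 29.8 and 46.2 CPM, and its counts were 26.8, 33.6, 24.1 and 23.9% of those of Cox6b1. CKO 1 was its lowest and CKO 2 its highest library (log2 fold change 0.05 ± 0.24 SE). Cox6a2, the muscle form of Cox6a1, stood at 6.20, 5.01, 6.51 and 10.9 CPM, which was 3.45, 2.55, 4.14 and 3.90% of Cox6a1 counts. Its log2 fold change of 0.63 ± 0.31 SE was the largest of any member (edgeR adjusted p = 0.717). Of its exon bases 10.3% overlap Itgad on the opposite strand, which stood at 15.9, 21.9, 9.85 and 8.60 CPM. Without a stated strand setting, reads that lie within these shared bases cannot be told apart.

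**Figure D2:**
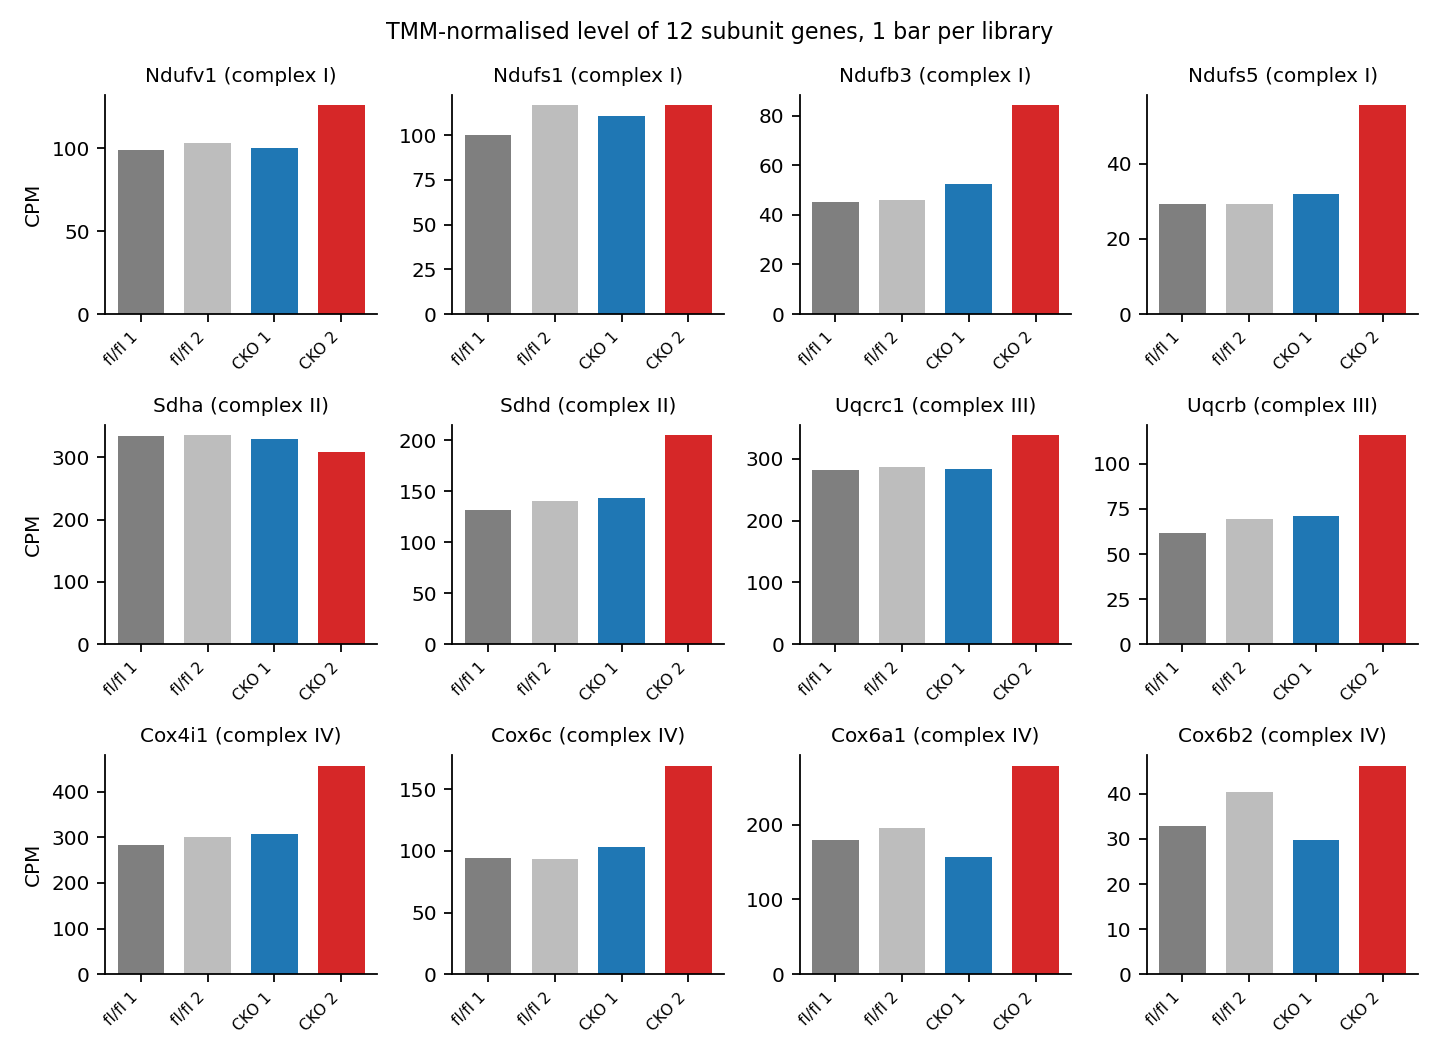
Bars give the TMM-normalised level in CPM of 12 subunit genes, 1 bar per library, with axes that start at 0 and differ between panels. Ndufb3, Ndufs5, Sdhd, Uqcrb, Cox4i1 and Cox6c stand at 1.51 to 1.89 times the fl/fl mean in CKO 2, whereas Sdha is lowest there (308 CPM).

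Apart from the within-library count percentages above, levels of different genes were compared only per kilobase of principal transcript. This is the longest isoform annotated as principal. On that scale complex IV and complex III genes were the most abundant, with medians over genes of the mean of the 4 libraries of 127 and 119 CPM per kb, followed by complex II at 97.5 and complex I at 60.1 CPM per kb. The order depends on the length used, since with the longest annotated transcript the medians were 76.9, 91.3, 94.5 and 53.1, and with all annotated exons 52.2, 82.5, 60.6 and 36.5 CPM per kb. Complex I was the lowest with each of the 3 lengths. Single genes ran from Cox4i1 (440 CPM per kb), Cox6a1 (355), Cox8a (302) and Uqcrh (255) down to the isoforms listed at 0.

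Shorter members stood higher in CKO 2. Over the 64 tested members, the log2 ratio of CKO 2 to the fl/fl mean had a Pearson correlation of -0.44 (Spearman -0.43) with log2 exonic length, -0.51 (-0.40) with log2 principal transcript length and -0.57 (-0.47) with log2 coding length. These are descriptions across genes of the same 4 libraries, and without Cox4i2 and Cox7a1, whose counts are low, the Pearson values were -0.61, -0.65 and -0.66. For CKO 1 the correlations with the 3 lengths were 0.16, 0.20 and 0.16. Over 13220 tested protein-coding genes they were -0.45 with exonic and -0.51 with principal length for CKO 2, and -0.04 and -0.07 for CKO 1. The subunits and the coding genes at large were not tested against each other in this relation.

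The 9 tested members with a coding sequence of at least 1000 bases stood at 0.921 to 1.40 times the fl/fl mean in CKO 2, with a median of 1.19. They included Ndufs1, Sdha, Uqcrc1, Ndufv3, Ndufv1, Uqcrc2, Ndufa9 and Ndufa10. The 55 shorter members ranged from 0.749 to 2.01 with a median of 1.61, and the lowest of these was Cox4i2. In CKO 1 both sets had a median of 1.00. This limit of 1000 bases was set after the values were seen, as were the use of principal transcripts, the ratio of 3 used next, the 4 Y-linked genes and the promoters shown. The exonic length behind the count table adds up all annotated exons, including those of rare or retained-intron isoforms, and for 8 tested members it was at least 3 times the principal length. Cox6c has 3567 exonic bases but a principal transcript of 738, and stood at 1.80 times the fl/fl mean in CKO 2. Ndufb5 (4995 and 1079 bases) and Ndufb7 (4522 and 623 bases) stood at 1.63 and 1.53 times. Ndufs1 (8086 and 2661 bases), long by either measure, stood at 1.08 times. So members that look long by exonic length but have a short principal transcript were high in CKO 2.

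**Figure D3:**
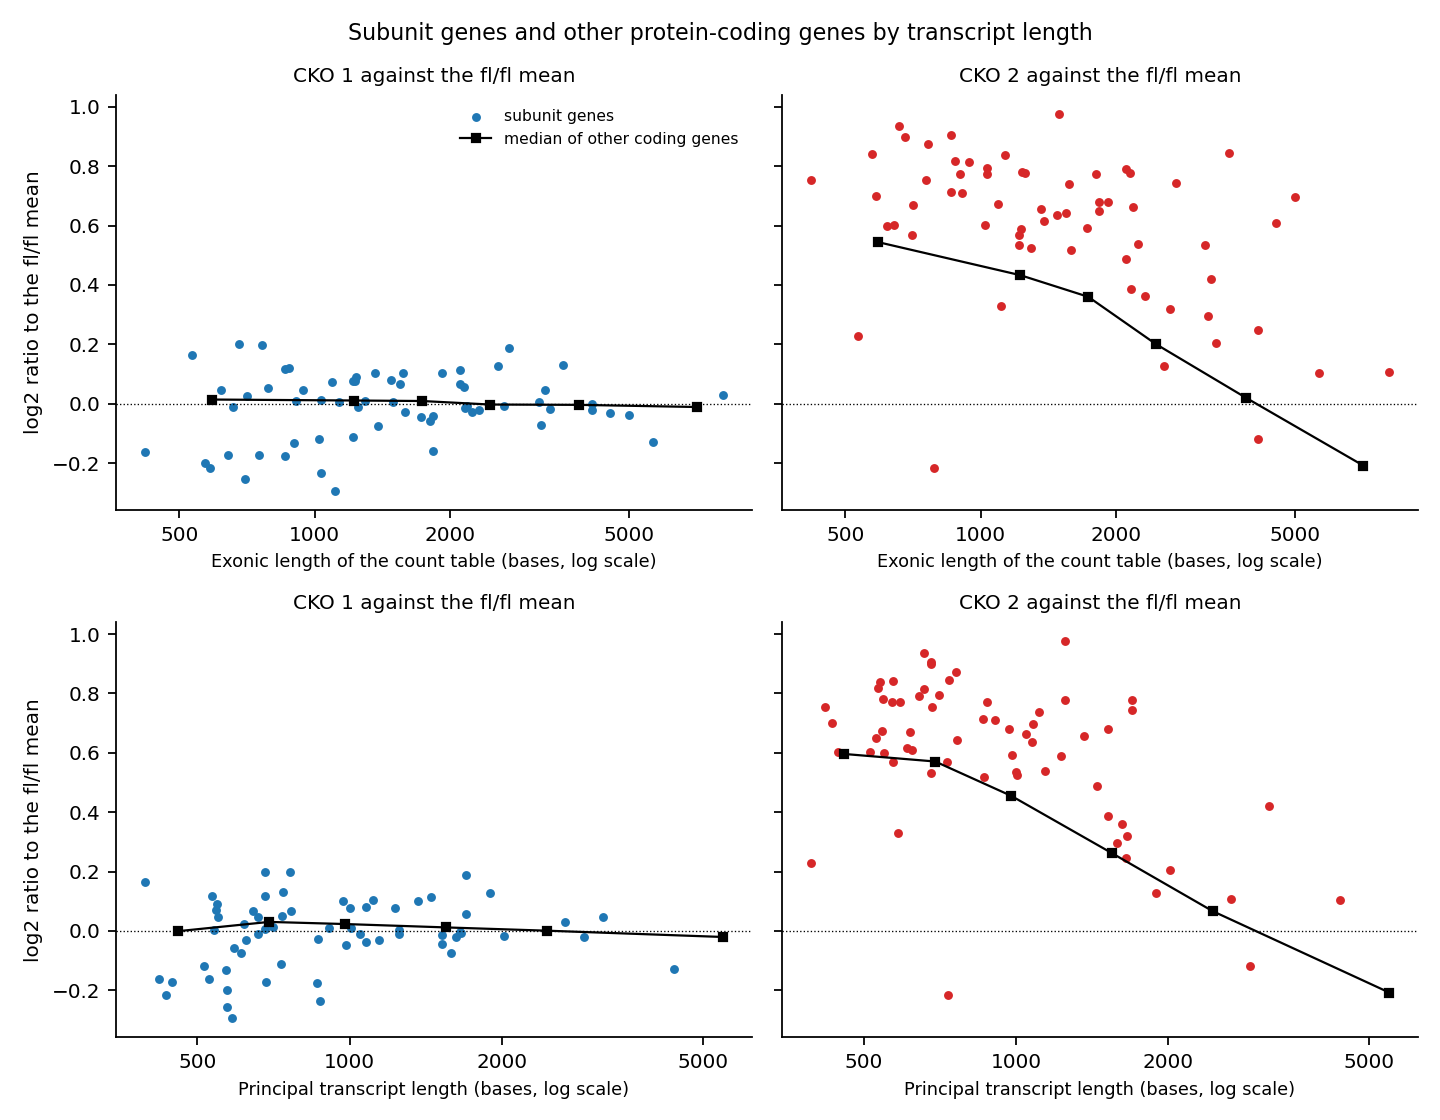
Each point is a tested subunit gene, with exonic length (upper row) or principal transcript length (lower row) in bases on a log axis against the log2 ratio to the fl/fl mean, and squares join the medians of other protein-coding genes in bins of length. In CKO 2 both fall with length and most subunit genes lie above the line of the other genes, while CKO 1 is flat near 0.

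Members were higher in CKO 2 than other coding genes of similar length. Under 1000 exonic bases, the median ratio of CKO 2 to the fl/fl mean was 1.69 for 19 members and 1.46 for 301 other genes. From 1000 to 1500 bases it was 1.56 for 16 members and 1.35 for 593 others, and from 1500 to 2000 bases 1.59 for 8 members and 1.28 for 833 others. From 2000 to 3000 bases it was 1.43 for 10 members and 1.15 for 2016 others, and from 3000 to 5000 bases 1.34 for 9 members and 1.01 for 3761 others. In total 59 of the 64 lay above the median of the other genes in their bin and 37 above its upper quartile. With principal transcript length the gap was smaller, with 55 above the median and 30 above the upper quartile, and under 600 bases the medians were 1.61 for 16 members and 1.51 for 152 others. Within bins members and other genes were not tested against each other.

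When each library's trend with exonic length was removed, the members' median log2 ratio of CKO 2 to the fl/fl mean went from 0.65 to 0.34. By complex it became 0.41, 0.27, 0.31 and 0.30 for complexes I to IV, and the median over all tested coding genes was 0.02. The median log2 fold change between genotypes went from 0.36 to 0.19, and to 0.14 with principal transcript length. EdgeR called 0 members in either of these fits, against 0.323% of all tested genes with exonic length. CKO 2 also differed from the other libraries in its Y-linked counts and in eosinophil and B cell markers, and their part in what remained was not tested.

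Other nuclear genes for mitochondrial proteins were examined as lists, beside the same median ratio of CKO 2. ATP synthase subunits had a median log2 ratio of 0.65 in CKO 2 (0.42 with the exonic length trend removed, where the members were at 0.34) and 0.04 in CKO 1 over 16 genes, all 16 with a positive log2 fold change. Atp5l, a small membrane subunit, stood at 67.2, 66.6, 87.3 and 115.4 CPM, with both CKO libraries above the fl/fl pair (0.60 ± 0.18 SE, edgeR adjusted p = 0.567). Mitochondrial ribosomal proteins, which make the subunits encoded in mitochondrial DNA, had median ratios of 0.58 in CKO 2 (0.40 with the trend removed) and 0.03 in CKO 1, and 76 of 77 tested genes were positive. Mrpl18 stood at 55.7, 58.2, 70.9 and 95.9 CPM (0.55 ± 0.19 SE, edgeR adjusted p = 0.667). Assembly factors of the complexes had a median ratio of 0.38 in CKO 2 (0.28 with the trend removed), with 43 of 49 tested genes positive. Sdhaf1, which helps insert the iron-sulphur clusters of Sdhb, stood at 1.28, 1.26, 1.76 and 3.58 CPM (1.07 ± 0.43 SE, edgeR adjusted p = 0.717).

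Lists of electron carriers and entry points, cycle enzymes and biogenesis regulators had smaller median ratios in CKO 2, which were not tested against those of the subunits. Their genes were also longer, with median exonic lengths of 3404 bases for electron carriers, 4145 for cycle enzymes and 4562 for biogenesis regulators, against 1372 for the tested subunits. Electron carriers and entry points had a median log2 ratio of 0.28 there (0.13 with the exonic length trend removed), with 12 of 19 positive, among them Cycs (cytochrome c) at 89.7, 107.2, 107.7 and 172.6 CPM. Tricarboxylic acid cycle enzymes had a median ratio of 0.14 (0.16 with the trend removed), with 10 of 14 positive. Ogdh, a subunit of the oxoglutarate dehydrogenase complex, was lowest in CKO 2, at 332.5, 366.2, 319.7 and 246.4 CPM, while Suclg1, a subunit of succinyl-CoA ligase, was highest there, at 88.4, 85.5, 94.3 and 119.4 CPM. Regulators of mitochondrial biogenesis had a median ratio of 0.06 in both CKO libraries, with 13 of 18 tested genes positive. The coactivator genes Pprc1 (106.1, 115.5, 96.8 and 76.6 CPM) and Ppargc1b (10.1, 10.01, 8.93 and 6.03 CPM) were lowest in CKO 2. Mterf1a was highest there, at 1.99, 2.59, 2.99 and 3.71 CPM. Of the 18 tested regulators, CKO 2 was the highest library for 6 and the lowest for 8. EdgeR, DESeq2 and limma-voom called 0 members of these lists. At an unadjusted p under 0.05, edgeR gave 11 of the 193 tested list genes, all positive (5.7%), where 3.23% of all tested genes were at that level with a positive value. Without CKO 1, edgeR called 96 list genes higher, against 10.2% of all tested genes, and 3 lower, which were 2 biogenesis regulators and 1 cycle enzyme. Without CKO 2 it called 0. For these lists too, the shares of all tested genes were not matched for length. The 13 protein-coding genes of mitochondrial DNA, which encode the other subunits of complexes I, III and IV, had 0 counts in all 4 libraries, so the balance of nuclear and mitochondrial subunits was not analysed here.

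**Figure D4:**
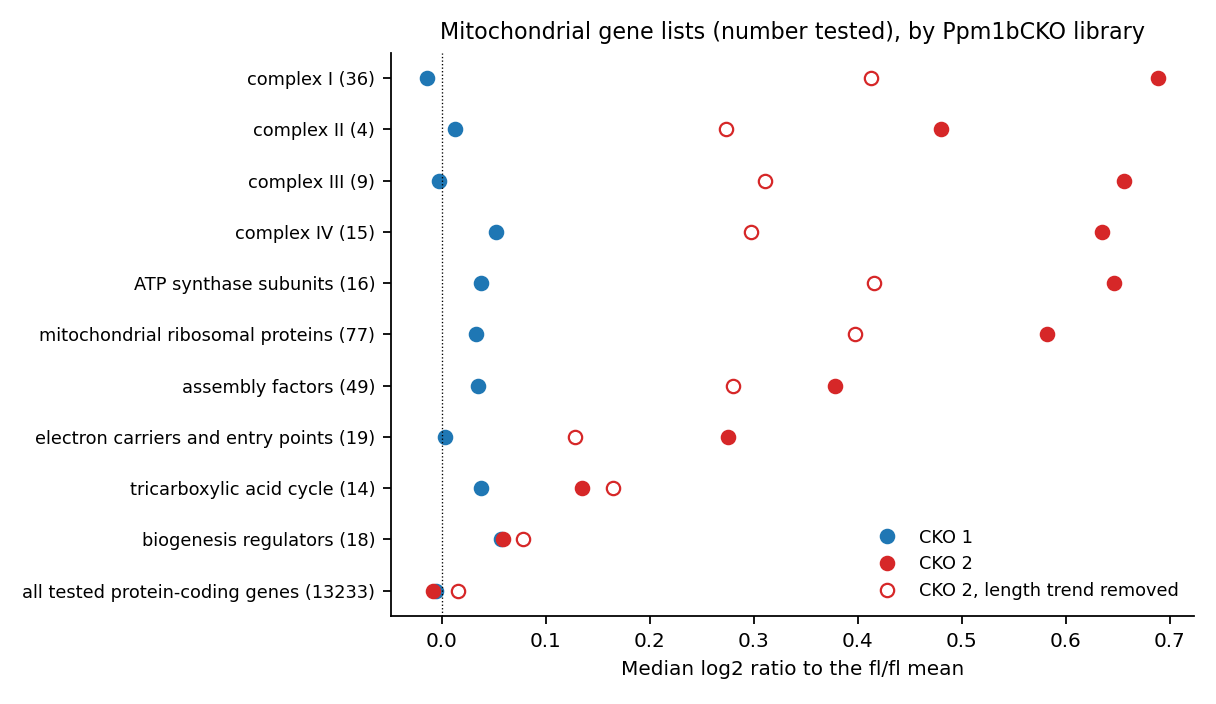
Points give the median log2 ratio to the fl/fl mean of each list in CKO 1 (blue) and CKO 2 (red), with open circles for CKO 2 after removal of the trend with exonic length. Complexes I to IV, ATP synthase and mitochondrial ribosomal proteins lie between 0.48 and 0.69 in CKO 2, biogenesis regulators at 0.06, and every list in CKO 1 lies under 0.06.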

How the data were processed

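RNA-seq counts were compared in 4 libraries, 2 per genotype. The values deposited by the authors were raw counts per gene, in whole numbers. The submitters' processing notes name featureCounts 2.0.1, HISAT2 2.2.0 and Trim Galore 0.6.7, and the build mm10. The sources used here gave neither the strand setting nor how multi-mapped reads were handled, so subunit genes with near-identical copies, such as Uqcrh, are uncertain. GENCODE M21 (mm10) gave symbols and lengths for 55139 of 55399 genes.

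Genotypes were compared with edgeR 4.0.16 in R 4.3.3 (robust quasi-likelihood test, TMM scaling, no covariates, and the filterByExpr filter at a count of 10 and a total of 15). Benjamini-Hochberg adjustment covered all 16393 tested genes, and the threshold was 0.05. Standard errors (SE) are the log2 fold change divided by the square root of the F statistic. CPM are TMM-normalised, and per-library log2 ratios use CPM + 0.5. Chi-square values per degree of freedom of 22.9 between the fl/fl libraries and 47.8 between the CKO libraries set both pairs apart beyond sampling noise. Length trends were lowess curves (span 0.3) on log2 length, removed through offsets. Alternatives included DESeq2 1.42.0, limma-voom (limma 3.58.1), other filters and scaling, the replicate number as a block, and each library left out. Wilson intervals and count limits cover counting error only. The fit was tested on simulated counts. The members, lists and tests were chosen with earlier results of these data known. Values in every library were given by rule for the 3 members of each complex with the smallest p, the shortest and the longest, the catalytic subunits (not all reported here) and the tissue isoform pairs, and for up to 3 genes of each list with the smallest p.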

Additional observations from a re-analysis of the deposited data

How the results depend on the processing

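With 2 libraries per genotype, the subunit results turn on a single Ppm1bCKO library, and counts were low for Ndufa4l2, Cox4i2, Cox7a1, Cox7b2, Cox8b and Cox8c. EdgeR called 61 of all genes, DESeq2 199, edgeR without a low-count filter 311, and with the replicate block 207, while with immunoglobulin genes left out it called 0 (the causes were not tested). None of these called a subunit gene. The replicate numbers gave no ground for pairing, since same-numbered libraries deviated with a correlation of only 0.064. With the replicate block the members' median log2 fold change was 0.32. Over the other tools, filters and scalings it ranged from 0.31 to 0.36, and it was 0.19 and 0.14 with the length trend removed.

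Leaving out each library in turn, the number of genes called ranged from 94 to 3336, of subunit genes from 0 to 51 and of genes of the other mitochondrial lists from 0 to 99. The median log2 fold change ranged from 0.00023 to 0.66 over all members, from -0.015 to 0.70 for complex I, 0.012 to 0.48 for complex II, -0.0031 to 0.66 for complex III and 0.066 to 0.64 for complex IV. The log2 ratio of summed CPM ranged from -0.020 to 0.59 for complex I. The lowest and highest of these values came without CKO 2 and without CKO 1, although no subunit or list gene was called without either fl/fl library as well. Among log2 fold changes that changed sign, values ranged from -0.17 to 0.76 for Ndufa1, -0.076 to 0.62 for Ndufa4, -0.047 to 0.60 for Ndufs7, -0.0075 to 0.32 for Ndufv1, -0.042 to 0.18 for Ndufs1, -0.030 to 0.54 for Sdhb, -0.22 to 0.70 for Uqcr10, -0.015 to 0.39 for Cyc1, -0.0031 to 0.25 for Uqcrc1, -0.26 to 0.57 for Cox6a1, -0.62 to 0.57 for Cox4i2 and -0.30 to 0.33 for Cox6b2. With the exonic length trend removed, Cox6b2 was at -0.16. With the principal length trend removed, an alternative added after the data were seen, Cox6b2 was at -0.18, Cox6a1 at -0.029 and Uqcrc1 at -0.0035.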
